A study of Mus musculus with 9 samples.

Results

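The genes described here encode the aminoacyl-tRNA synthetases, 36 genes of the 20189 in the deposited count table. They were chosen by gene symbol and not by their values, although earlier results of these data were known at the time. Of these, 20 encode cytosolic enzymes and 16, written with the suffix 2, encode their mitochondrial counterparts. All 36 had at least 1 count over the libraries and were tested. Wild-type E14 cells, a line of mouse embryonic stem (ES) cells, were grown on gelatin with serum and leukemia inhibitory factor and then kept for 3 h without threonine (Thr-starved), without cysteine (Cys-starved) or with all amino acids (unstarved), with 3 libraries in each group. Poly(A)-selected RNA was sequenced in strand-specific libraries. Which medium lacked Thr or Cys for these libraries is not stated in the sources used here. The labels describe a 3 h medium with dialyzed serum for other amino acids, and the methods of the study describe a Cys-free medium, also with dialyzed serum, for ferroptosis assays.

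Each synthetase attaches one kind of amino acid to its tRNAs, and the charged tRNA then delivers that residue to the ribosome. Cytosolic and mitochondrial ribosomes use separate sets of tRNAs, and most amino acids have a separate nuclear gene for the enzyme of each compartment. Gars and Kars are exceptions, since each encodes both the cytosolic and the mitochondrial enzyme, and Eprs carries the activities for Glu and Pro in a single protein. When an amino acid is short, its uncharged tRNA activates the kinase GCN2, phosphorylation of eIF2α raises translation of the transcription factor ATF4, and ATF4 with C/EBP partners binds composite elements in promoters that include those of many cytosolic synthetases.

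Promoter sequences are shown first because such an element was present in some of the cytosolic genes examined. RefSeq windows on GRCm38.p6, from 250 bases before to 50 bases after the annotated start, were held for 13 of the 20 cytosolic and 14 of the 16 mitochondrial genes. The C/EBP-ATF element, searched as TGATGNAA on both strands, occurred in the windows of Aars, Gars, Iars, Tars and Yars, 5 of 13 cytosolic genes, and in those of 0 of 14 mitochondrial genes. Of the 27025 genes in the whole table, some with more than 1 window, 4.51% held it. With so low a share, 0 of 14 does not set the mitochondrial genes apart from other genes. The E-box CACGTG was present in 4 of 13 cytosolic genes (Aars, Farsb, Iars and Tars) and in 1 of 14 mitochondrial genes (Ears2), against 8.09% of all genes. The cyclic AMP response element TGACGTCA occurred in no gene of either set and in 2.03% of all genes. As a share of windows, of which the table held 32851 of equal length, the 3 motifs were in 3.97%, 7.15% and 1.79%. The following stretches run 5′ to 3′ along each gene from 250 bases before the start through the first 30 transcribed bases, with TGATGNAA, read on either strand, and CACGTG in capitals. Aars, Iars and Tars are shown as genes with both motifs, and Qars as the cytosolic gene with the largest decrease, which held neither. Qars does not stand for all 8 cytosolic genes whose window lacked the C/EBP-ATF element, of which 5 were higher and 2 lower on Thr starvation.
Aars, chr8:111033592-111033871 (plus strand): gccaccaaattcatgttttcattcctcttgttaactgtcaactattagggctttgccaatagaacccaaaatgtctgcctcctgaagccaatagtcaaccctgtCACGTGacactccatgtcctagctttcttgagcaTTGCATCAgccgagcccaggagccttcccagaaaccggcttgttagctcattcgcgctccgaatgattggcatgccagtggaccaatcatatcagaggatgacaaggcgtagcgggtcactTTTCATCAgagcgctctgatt
Iars, chr13:49681880-49682159 (plus strand): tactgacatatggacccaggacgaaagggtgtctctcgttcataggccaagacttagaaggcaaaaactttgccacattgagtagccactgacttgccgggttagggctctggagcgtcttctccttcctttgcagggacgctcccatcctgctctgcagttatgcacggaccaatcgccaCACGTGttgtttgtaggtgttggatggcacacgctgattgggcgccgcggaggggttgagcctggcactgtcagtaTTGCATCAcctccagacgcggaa
Tars, chr15:11399629-11399908 (minus strand): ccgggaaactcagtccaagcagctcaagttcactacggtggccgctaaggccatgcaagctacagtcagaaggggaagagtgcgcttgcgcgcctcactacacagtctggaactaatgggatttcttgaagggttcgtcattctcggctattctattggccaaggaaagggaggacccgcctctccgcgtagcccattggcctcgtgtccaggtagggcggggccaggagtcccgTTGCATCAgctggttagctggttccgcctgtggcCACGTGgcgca
Qars, chr9:108507755-108508034 (plus strand): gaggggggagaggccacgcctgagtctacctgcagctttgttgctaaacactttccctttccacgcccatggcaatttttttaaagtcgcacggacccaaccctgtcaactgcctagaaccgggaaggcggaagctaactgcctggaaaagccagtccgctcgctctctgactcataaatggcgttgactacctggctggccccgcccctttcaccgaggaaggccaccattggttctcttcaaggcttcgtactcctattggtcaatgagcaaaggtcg

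Counted from the first transcribed base as 0, the element began at -112 and at 9 in Aars, at -30 in Gars, at 7 in Iars, at -15 in Tars and at 3 in Yars. The windows of Cars, Hars, Lars, Nars, Rars, Vars, Wars, Hars2 and Pars2 were not analysed here. A match describes the letters in the window only, and binding was not measured.

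**Figure D1:**
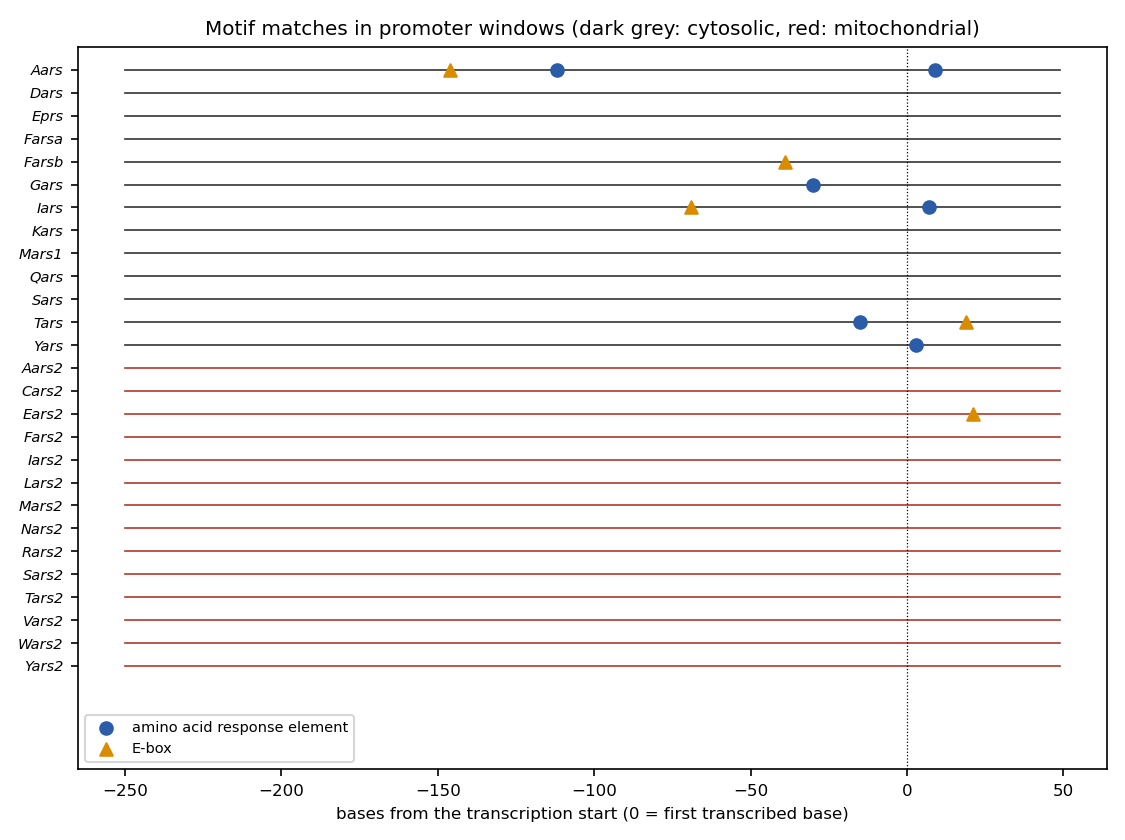
Matches of the C/EBP-ATF element (circles) and the E-box (triangles) in the promoter windows of 13 cytosolic (dark grey lines) and 14 mitochondrial (red lines) synthetase genes, with 1 line per gene on the y axis and bases from the first transcribed base on the x axis. The C/EBP-ATF element appears in 5 cytosolic genes and in 0 mitochondrial genes, and the cyclic AMP response element had no match to draw.

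Library totals ranged from 48763102 to 74962733 counts, and every member had at least 437 counts in every library. The 8 ES cell markers examined had group means between 148 and 859 CPM (counts relative to the scaled library total), with Pou5f1 at 757 to 849 and Nanog at 211 to 283, whereas no fibroblast, endoderm or mesoderm marker had a group mean above 5.68 CPM. The neural genes Sox1 and Pax6 stood at 7.53 to 15.4 CPM, and Lum, Mesp1 and Neurog2 were not among the rows analysed. Nothing in the labels states that the 3 libraries of a group came from separate cultures, so p-values measure the spread between these samples, which may be technical.

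In unstarved cells the cytosolic enzymes were the more abundant transcripts. Per kilobase of exonic length, their levels ran from 27.6 CPM for Qars to 262 CPM for Gars with a median of 72.1, and those of the mitochondrial enzymes ran from 1.5 CPM for Wars2 to 17.0 CPM for Rars2 with a median of 5.90. The lowest cytosolic gene therefore stood above the highest mitochondrial gene on this scale. Along the full order of the 36 levels, 10 of the 35 steps between neighbours were smaller than the summed SDs of the neighbours. The summed cytosolic level was 7558 ± 117 CPM (SD, n = 3) in unstarved, 8289 ± 49.2 in Cys-starved and 9198 ± 23.9 in Thr-starved cells, and the 3 groups did not overlap. The summed mitochondrial level was 672 ± 17.3 CPM in unstarved, 614 ± 10.0 in Cys-starved and 639.5 ± 7.75 in Thr-starved cells, again without overlap and with the highest values in unstarved cells. Without Lars2, the gene with the widest spread between unstarved libraries and one left out after its values were seen, the sum of the other 15 was 539 ± 7.49, 518 ± 5.31 and 535.6 ± 2.36 CPM in the same order, and the Thr-starved and unstarved libraries then overlapped. CPM is a share of the counted RNA in bulk samples, and fewer cells carrying a transcript cannot be told apart from less of it per cell.

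**Figure D2:**
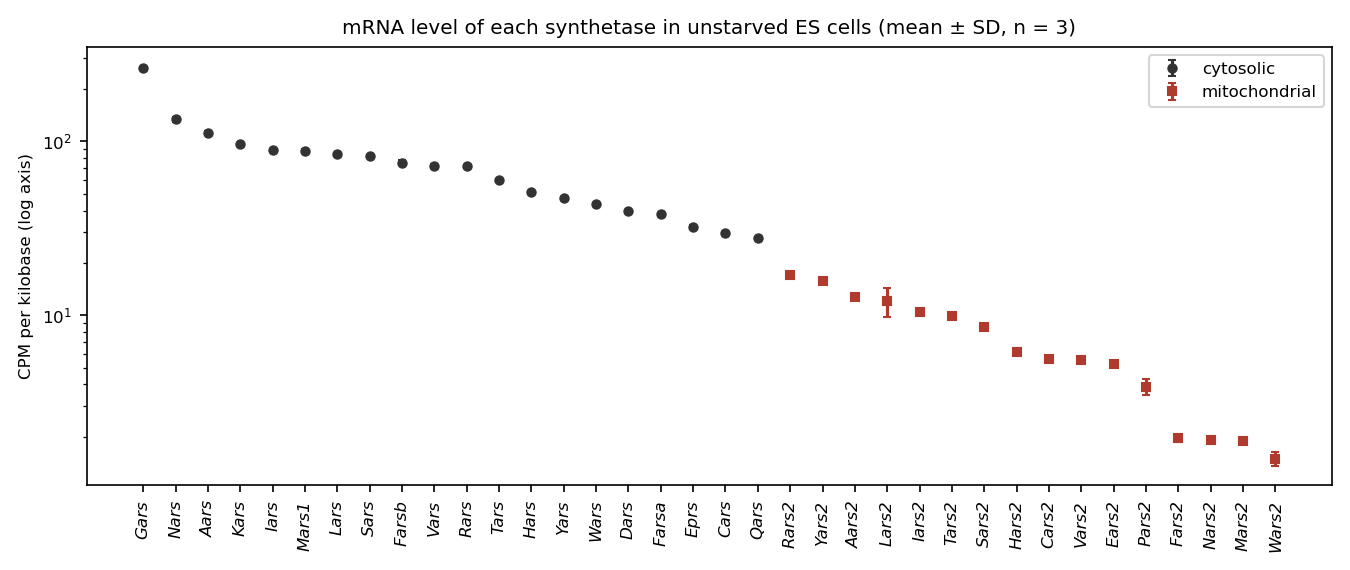
Level of each of the 36 synthetase transcripts (x axis, in descending order) in unstarved cells, in CPM per kilobase of exonic length on a log axis, as the mean with the SD (n = 3). The cytosolic genes (circles) lie between 27.6 and 262 and the mitochondrial genes (squares) between 1.5 and 17.0.

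Thr starvation raised most cytosolic synthetase transcripts by modest amounts. At an adjusted P-value of at most 0.05 (quasi-likelihood test of edgeR, adjusted over 20143 genes), 14 of the 20 cytosolic genes were higher than in unstarved cells, 3 were lower and 3 did not pass. Across all genes tested, 63% passed, 31.1% as higher and 31.9% as lower. The median log2 fold change of the cytosolic genes was 0.17, within a range of -0.50 to 0.66, and that of all tested genes was -0.02. The 16 mitochondrial genes divided differently, with 5 higher, 8 lower, 3 that did not pass, a median of -0.05 and a range of -0.47 to 0.44. Without Thr-starved library 1, or with offsets for GC content and length, 5 were higher and 5 lower, and the median was -0.10 without Thr-starved library 3. For 19 of 20 cytosolic and 12 of 16 mitochondrial genes the values of the Thr-starved and the unstarved group were fully separated, as were those of 66.5% of all tested genes.

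Cys starvation also raised more cytosolic genes than it lowered. Of its 20 genes, 12 were higher than in unstarved cells, 3 were lower and 5 did not pass, where 36.3% of all tested genes passed, 17.5% as higher and 18.8% as lower. The median of the cytosolic genes was 0.08, with a range of -0.27 to 0.37, against 0.01 for all tested genes. Among the mitochondrial genes, 3 were higher, 6 were lower and 7 did not pass, with a median of -0.06 and a range of -0.47 to 0.33. Libraries did not overlap for 17 cytosolic and 9 mitochondrial genes, with 46.4% of all genes in that state. When the size factors deposited by the authors replaced TMM, the cytosolic counts became 9 higher and 5 lower and the mitochondrial counts 1 higher and 7 lower, while the share of called genes that were higher went from 48.2% to 36.8% over all genes. Both comparisons with unstarved cells used the same 3 unstarved libraries.

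The direct comparison of Thr-starved with Cys-starved cells passed for 62% of all tested genes, 30.4% as higher and 31.6% as lower in Thr-starved cells. Of the cytosolic genes, 11 were higher in Thr-starved cells, 5 were lower and 4 did not pass, with a median of 0.09. Of the mitochondrial genes, 6 were higher, 6 were lower and 4 did not pass, with a median of 0.10. That median was 0.0074 with GC and length offsets and 0.067 without Cys-starved library 2, only 3 were lower with the deposited size factors or at an adjusted P-value of 0.01, and 4 were higher without Cys-starved library 1 or Thr-starved library 2. The median of all tested genes was -0.02. Groups did not overlap for 17 cytosolic and 11 mitochondrial genes, against 65.8% of all genes. No member reached a log2 fold change of 1 in any of the 3 comparisons.

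**Figure D3:**
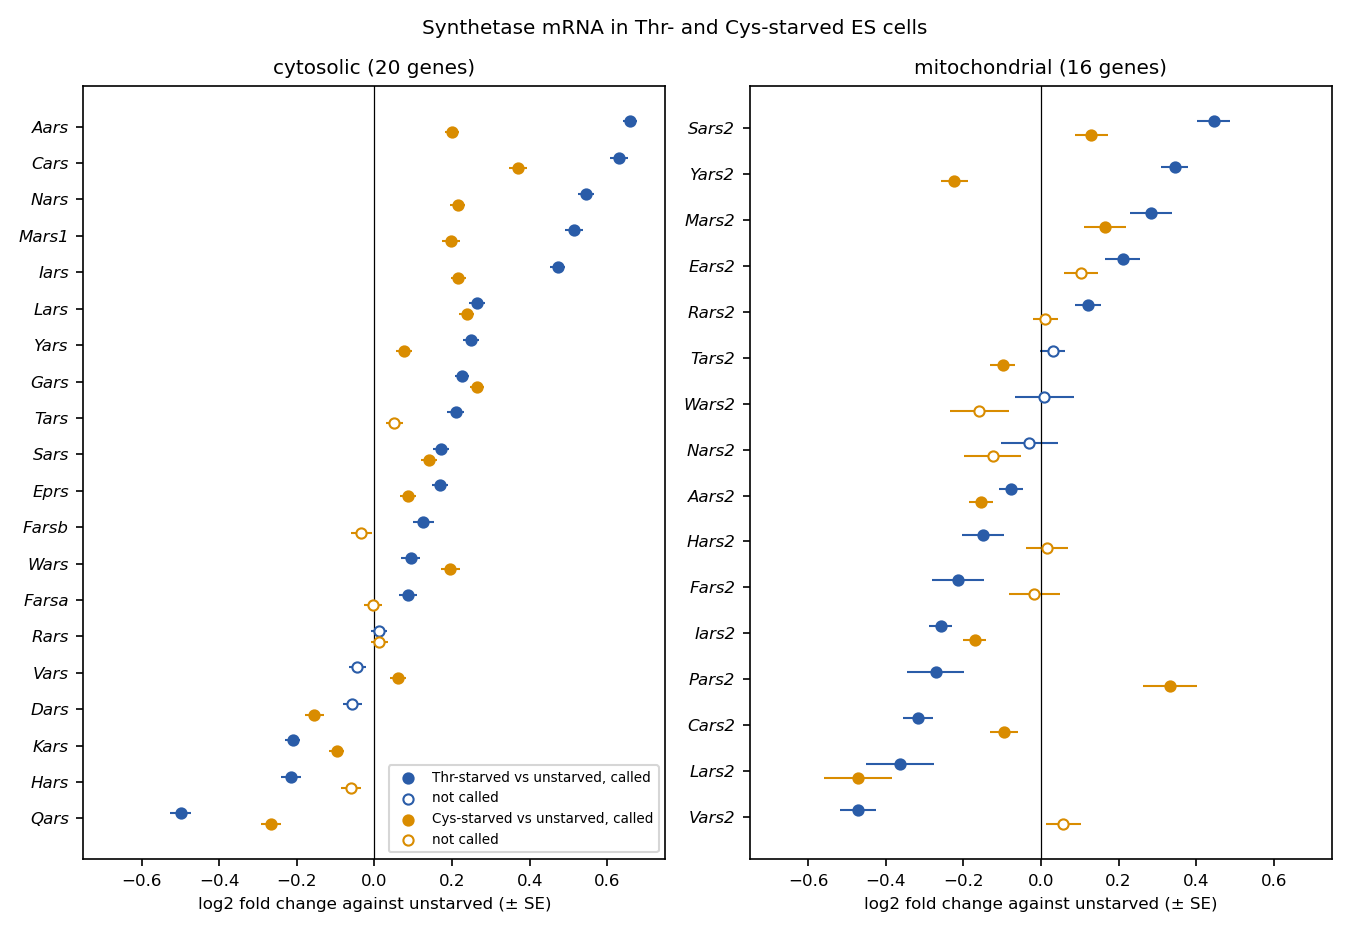
Log2 fold change against unstarved cells (x axis) of the 20 cytosolic and 16 mitochondrial synthetase transcripts (y axis) on Thr starvation (blue) and Cys starvation (orange). Points are edgeR estimates with bars of 1 standard error, filled where the adjusted P-value was at most 0.05, and the Thr values run from -0.50 to 0.66 for cytosolic and from -0.47 to 0.44 for mitochondrial genes.

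The enzymes of the omitted amino acids were examined next. Tars, which charges tRNA with Thr in the cytosol (GRCm38 chr15:11382301-11399665), was at 346, 353 and 357 CPM in the unstarved libraries, 368, 366 and 360.2 CPM in the Cys-starved libraries, and 405, 400.4 and 417 CPM in the Thr-starved libraries. The 3 Thr-starved libraries were the highest, and every Cys-starved library lay above the unstarved ones. Relative to unstarved cells Tars rose by 0.21 ± 0.02 (log2, SE) on Thr starvation (adjusted P-value 1.63e-08). The Cys estimate was 0.05 ± 0.02 and missed the threshold (adjusted P-value 0.077), but passed when genes under 10 counts in any library were removed (0.0345) or when only these 2 groups were fitted (0.0324). Thr-starved cells exceeded Cys-starved cells by 0.16 ± 0.02 (adjusted P-value 1.2e-06). In order of log2 fold change among the 20 cytosolic genes, Tars was at place 9 on Thr starvation and at place 13 on Cys starvation.

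Cars, the cytosolic cysteinyl-tRNA synthetase (chr7:143557230-143600090), was at 194, 199 and 190.4 CPM in unstarved, 249.9, 254 and 251 CPM in Cys-starved, and 303, 302 and 298 CPM in Thr-starved libraries. The 3 groups were fully separated, in the order unstarved, Cys-starved and Thr-starved. The increase was 0.37 ± 0.02 on Cys starvation (adjusted P-value 2.61e-11), where Cars had the highest value of the 20 cytosolic genes, and 0.63 ± 0.02 on Thr starvation (adjusted P-value 1.74e-16), where it was at place 2. The level in Thr-starved cells exceeded that in Cys-starved cells by 0.26 ± 0.02 (adjusted P-value 1.05e-09).

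Their mitochondrial counterparts were examined in the same way. Tars2 (chr3:95739976-95760206) was at 67.1, 68.2 and 71.9 CPM in unstarved, 65.7, 63.6 and 64.1 CPM in Cys-starved, and 70.1, 70.2 and 71.1 CPM in Thr-starved libraries. The Cys-starved libraries were the lowest, and the Thr-starved ones lay within the unstarved range. Its log2 fold change was 0.03 ± 0.03 on Thr starvation (adjusted P-value 0.426), which became 0.12 and passed with GC and length offsets (adjusted P-value 0.00177), and -0.10 ± 0.03 on Cys starvation (adjusted P-value 0.0163), the latter no longer passing without Cys-starved library 2 or unstarved library 3. In the direct comparison Tars2 was higher in Thr-starved than in Cys-starved cells by 0.13 ± 0.03 (adjusted P-value 0.00113), in the same direction as Tars, and by 0.26 with those offsets. Cars2 (chr8:11513977-11550783) was at 40.8, 40.9 and 40.4 CPM in unstarved, 37.6, 38.5 and 38.2 CPM in Cys-starved, and 32.4, 31.6 and 33.8 CPM in Thr-starved libraries. Here the Thr-starved libraries were the lowest and the unstarved the highest, without overlap. Cars2 fell by 0.32 on the log2 scale on Thr starvation (SE 0.04, adjusted P-value 1.21e-07), and its Cys value of -0.09 ± 0.04 passed narrowly (adjusted P-value 0.048) and was lost in 7 of the 9 fits that left out a library, all but those without Thr-starved library 2 or 3 (adjusted P-values 0.0502 to 0.143 in the 7). Thr-starved cells were lower in Cars2 than Cys-starved cells by a log2 difference of -0.22 ± 0.04 (adjusted P-value 1.95e-05), in the opposite direction to Cars. Cars2 shares 422 exonic bases on the opposite strand with Naxd, 5.83% of its exonic length. A stretch of its longest transcript also resembles transcripts of many other genes, such as Acp6 (93.0% identical over 172 bases). A part of the Cars2 reads is therefore of uncertain origin.

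The ratio of the cytosolic to the mitochondrial transcript within each library summarises both pairs. The log2 ratio of Cars to Cars2 was 2.26 ± 0.02 (SD, n = 3) in unstarved, 2.72 ± 0.01 in Cys-starved and 3.21 ± 0.06 in Thr-starved cells, so the linear ratio was 1.38 times higher on Cys starvation and 1.93 times higher on Thr starvation than in unstarved cells. The log2 ratio of Tars to Tars2 was 2.35 ± 0.03, 2.50 ± 0.02 and 2.53 ± 0.02 in the same order, 1.11 and 1.13 times above unstarved. For both pairs the starved libraries all lay above the unstarved ones. Between Thr-starved and Cys-starved libraries the Tars ratios overlapped (difference 0.03) and the Cars ratios did not (difference 0.48). In an exact two-sided permutation test of 3 against 3 libraries, 5 of the 6 comparisons gave 0.1, the smallest value this design allows, and the comparison with overlap gave 0.2, with Benjamini-Hochberg values over the 6 of 0.12 and 0.2.

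**Figure D4:**
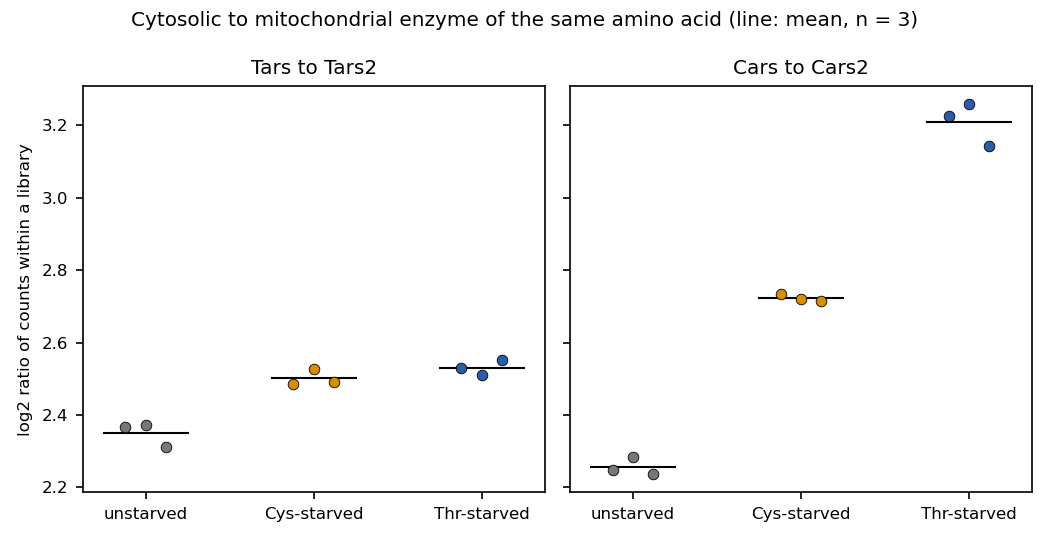
Log2 ratio of Tars to Tars2 and of Cars to Cars2 within each library (y axis) by group (x axis), with points for libraries and a line at the mean (n = 3). The lines stand at 2.26, 2.72 and 3.21 for Cars to Cars2 and at 2.35, 2.50 and 2.53 for Tars to Tars2 in unstarved, Cys-starved and Thr-starved cells.

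The sets were also counted without the Thr and Cys enzymes. Of the remaining 18 cytosolic genes, 12 were higher and 3 lower on Thr starvation (median 0.15), and 11 were higher and 3 lower on Cys starvation (median 0.08). Of the remaining 14 mitochondrial genes, 5 were higher and 7 lower on Thr starvation (median -0.05), and 3 were higher and 4 lower on Cys starvation (median -0.00). The cytosolic log2 fold change exceeded the mitochondrial one in 12 of 17 gene pairs for the same amino acid on Thr starvation (median difference 0.30). On Cys starvation it did so in 13 of 17 (median difference 0.03). Eprs was paired with both Ears2 and Pars2, and Fars2 with both Farsa and Farsb, so the pairs are not all separate. On Cys starvation the pairs of Rars, Vars, Sars and Farsa differed by only 0.0009 to 0.013. Eprs with Ears2 and Farsb with Fars2 differed by -0.015 and -0.016. Cars and Cars2 were the pair furthest apart on Thr starvation (0.95), and Lars and Lars2 on Cys starvation (0.71).

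Among the other cytosolic enzymes, Aars, which charges tRNA with Ala, had the largest increase on Thr starvation. It was at 1016, 1070.0 and 1024 CPM in unstarved, 1206, 1179 and 1189 CPM in Cys-starved, and 1638, 1636 and 1636 CPM in Thr-starved libraries. The groups were fully separated. Aars rose by 0.66 ± 0.02 on Thr starvation (adjusted P-value 1.3e-18) and by 0.20 ± 0.02 on Cys starvation (adjusted P-value 9.22e-09), and the Thr estimate became 1.02 with offsets for GC content and length. Of its annotated exonic length, 14.29% is shared on the same strand with Exosc6, which was not analysed here, and reads there cannot be assigned with certainty. Nars, the enzyme for Asn, was at 563, 592 and 590.4 CPM in unstarved, 675, 676 and 675 CPM in Cys-starved, and 855, 846 and 847 CPM in Thr-starved libraries. Its order was that of Aars, with increases of 0.55 ± 0.02 on Thr starvation (adjusted P-value 1.36e-16) and 0.21 ± 0.02 on Cys starvation (adjusted P-value 1.18e-08).

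Mars1, for Met, and Iars, for Ile, rose by 0.51 ± 0.02 and 0.47 ± 0.02 on Thr starvation and by 0.20 ± 0.02 and 0.22 ± 0.02 on Cys starvation. Mars1 shares 68 exonic bases on the opposite strand with Ddit3, 1.99% of its exonic length, and Iars is 96.0% identical over 1656 bases to the locus Gm4849, so a part of their reads is of uncertain origin. Gars, the enzyme for Gly, was at 800.1, 833 and 822 CPM in unstarved, 1004, 976 and 968 CPM in Cys-starved, and 955, 949 and 966 CPM in Thr-starved libraries. Unlike those of Aars and Nars, its Cys-starved libraries stood slightly above its Thr-starved ones, and every starved library was above every unstarved one. The increases of Gars were 0.23 ± 0.02 and 0.26 ± 0.02 on Thr and Cys starvation (adjusted P-values 4.19e-10 and 2.62e-10), and the difference of -0.04 ± 0.02 between the starved groups missed the threshold (adjusted P-value 0.08), passed without Cys-starved library 3 (0.0472) and turned positive with the deposited size factors (0.01) and with GC and length offsets (0.01).

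The cytosolic decreases were fewer. Qars, which charges tRNA with Gln, was at 177, 185 and 182 CPM in unstarved, 152, 152 and 149 CPM in Cys-starved, and 125, 130.2 and 130.3 CPM in Thr-starved libraries. The groups were fully separated in the reverse order to Aars. Qars fell by 0.50 on Thr starvation (SE 0.03, adjusted P-value 1.18e-13) and fell by 0.27 on Cys starvation (SE 0.03, adjusted P-value 3.37e-08). Kars, the Lys enzyme, was also lower in both, with log2 fold changes of -0.21 ± 0.02 and -0.10 ± 0.02. Hars, for His, was at 124, 126 and 127 CPM in unstarved, 119, 122 and 121 CPM in Cys-starved, and 109.7, 106 and 109 CPM in Thr-starved libraries. All starved libraries were below the unstarved ones, and the Thr-starved were the lowest. The Thr value was -0.21 ± 0.03 (adjusted P-value 1.87e-07). The Cys value of -0.06 ± 0.03 missed the threshold (adjusted P-value 0.0738) but passed with the deposited size factors, with DESeq2 and with GC and length offsets (adjusted P-values 0.00336, 0.0456 and 0.0131). Thr-starved cells were lower than Cys-starved cells by a log2 difference of -0.15 ± 0.03 (adjusted P-value 2.06e-05). Hars and Hars2 overlap on opposite strands by 195 exonic bases, 7.97% and 4.56% of their exonic lengths.

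Dars, the Asp enzyme, passed for Cys starvation and not for Thr starvation. It was at 169.8, 175 and 175 CPM in unstarved, 158, 158 and 151 CPM in Cys-starved, and 165, 168 and 166 CPM in Thr-starved libraries. The starved libraries were all below the unstarved ones, with the Cys-starved the lowest. Its log2 fold change was -0.16 ± 0.02 on Cys starvation (adjusted P-value 3.19e-05) and -0.06 ± 0.02 on Thr starvation (adjusted P-value 0.0534). The Thr value passed without Cys-starved library 3 or unstarved library 1 (0.0437 and 0.0445) and reached -0.27 with GC and length offsets. The difference of 0.10 ± 0.03 between Thr-starved and Cys-starved cells (adjusted P-value 0.00161) turned to -0.05 with those offsets.

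**Figure D5:**
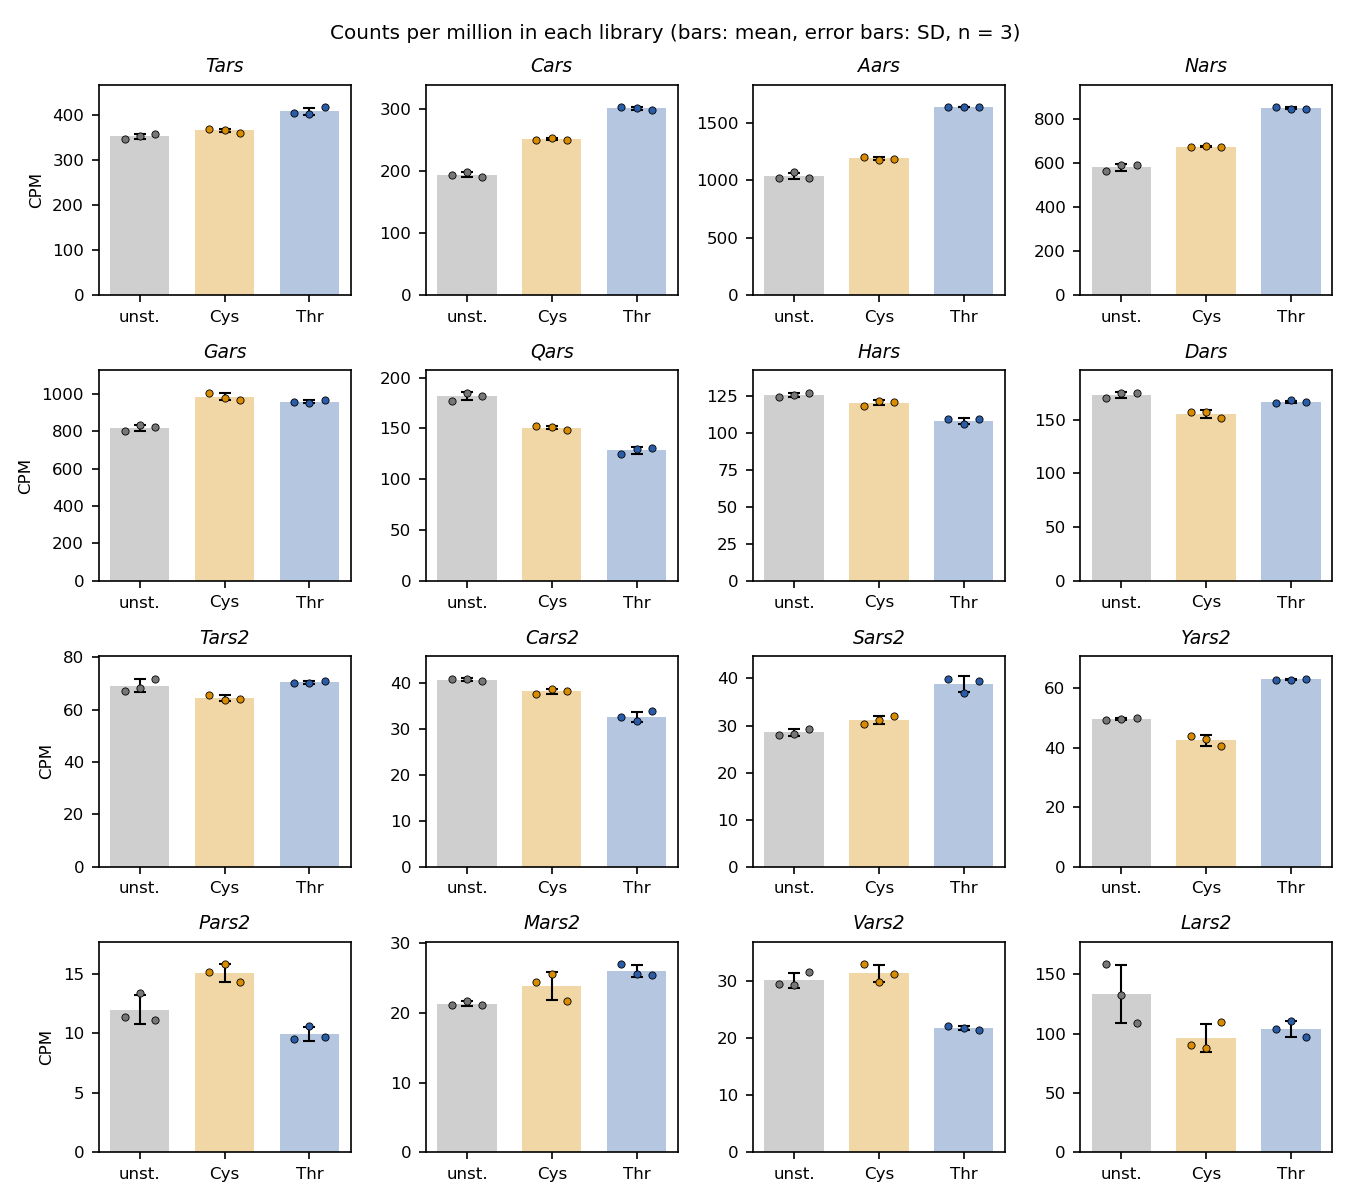
CPM (y axis) in the unstarved, Cys-starved and Thr-starved libraries (x axis) for 8 cytosolic and 8 mitochondrial synthetase genes, with bars for the mean, error bars for the SD (n = 3) and points for the libraries. The Aars libraries separate by group at 1016 to 1070.0, 1179 to 1206 and 1636 to 1638 CPM, whereas the Lars2 groups overlap.

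Grouped by joint result, 11 cytosolic genes were higher in both starvations, namely Aars, Cars, Eprs, Gars, Iars, Lars, Mars1, Nars, Sars, Wars and Yars. The share of all tested genes higher in both was not counted, while 31.1% were higher on Thr starvation and 17.5% on Cys starvation. Because both comparisons used the same unstarved libraries, these single shares are no baseline for the joint count. Farsa, Farsb and Tars were called higher on Thr starvation and not on Cys starvation, and Vars on Cys starvation and not on Thr starvation, at 0.06 ± 0.02. That call of Vars was lost without Cys-starved library 1 or 3 or unstarved library 1 or 3 (adjusted P-values 0.0769 to 0.135), with the deposited size factors (0.02, adjusted P-value 0.552) and with GC and length offsets (0.05, adjusted P-value 0.0912). Farsa and Farsb encode the subunits of the Phe enzyme. Kars and Qars were lower in both, and Rars, the Arg enzyme, passed in neither, with log2 fold changes of 0.01 and 0.01. With GC and length offsets, the Thr value of Eprs went from 0.17 to -0.05 and that of Rars to -0.07, and Vars, with a GC content of 60.9%, went from -0.04 to 0.51 and then passed (adjusted P-value 1.31e-16). The Farsb increase on Thr starvation no longer passed with those offsets (0.05), and the Cys increases of Eprs and Yars passed neither with them (0.02 and 0.04) nor with the deposited size factors (0.05 and 0.03). The 8 cytosolic members of the multi-synthetase complex comprised 4 higher, 2 lower and 2 not called on Thr starvation (median 0.09), whereas the 12 free-standing enzymes comprised 10 higher, 1 lower and 1 not called (median 0.19). On Cys starvation the complex members comprised 4 higher, 3 lower and 1 not called (median 0.05), and the free-standing enzymes 8 higher, 0 lower and 4 not called (median 0.11). By structural class, the 9 class I enzymes comprised 6 higher and 1 lower on Thr starvation (median 0.25) and 7 higher and 1 lower on Cys starvation (median 0.20), and the 10 class II enzymes comprised 7 higher and 2 lower (median 0.15) and 4 higher and 2 lower (median 0.02), with Eprs in both classes and left out. The 5 genes with the C/EBP-ATF element were all higher on Thr starvation (median 0.25), and 4 of them were higher on Cys starvation (median 0.20). Of the 8 cytosolic genes whose window lacked it, 5 were higher and 2 lower on Thr starvation (median 0.11), and 3 were higher and 3 lower on Cys starvation (median -0.02). The cytosolic genes without an analysed window belong to neither group. Of these, Cars, Nars, Lars and Wars were higher on Thr starvation (0.63, 0.55, 0.26 and 0.09). Hars was lower (-0.21), and Rars and Vars were not called. Whether the element goes with the increase was not tested.

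Mitochondrial enzymes moved in both directions. Sars2, the mitochondrial Ser enzyme, was at 28.0, 28.2 and 29.3 CPM in unstarved, 30.3, 31.3 and 32.0 CPM in Cys-starved, and 40.0, 36.9 and 39.5 CPM in Thr-starved libraries. The 3 groups did not overlap, and the Thr-starved libraries were the highest. Sars2 rose by 0.44 ± 0.04 on Thr starvation (adjusted P-value 2.82e-09), a value that became 0.85 with GC and length offsets, and by 0.13 ± 0.04 on Cys starvation (adjusted P-value 0.0181), a call lost with the deposited size factors (adjusted P-value 0.111) and without Cys-starved library 3, unstarved library 1 or unstarved library 2 (0.0562 to 0.0773). Mars2, for Met, was at 21.2, 21.7 and 21.1 CPM in unstarved, 24.5, 25.5 and 21.7 CPM in Cys-starved, and 27.0, 25.5 and 25.5 CPM in Thr-starved libraries. Cys-starved library 3 stood at the highest unstarved value, below the other two of its group, and the Thr-starved libraries were above every unstarved one. Mars2 was higher by 0.28 ± 0.05 on Thr starvation (adjusted P-value 7.36e-05) and by 0.17 ± 0.05 on Cys starvation (adjusted P-value 0.0178), but with GC and length offsets the former went to -0.03 and the latter to 0.10, and neither passed. The Cys call was also lost without Cys-starved library 1 or 2 or unstarved library 1 or 3 (adjusted P-values 0.0536 to 0.134). The GC content of its longest transcript is 38.8%.

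Yars2 and Pars2 changed in opposite directions in the 2 starvations. Yars2, the mitochondrial Tyr enzyme, was at 49.1, 49.7 and 49.9 CPM in unstarved, 44.0, 42.7 and 40.5 CPM in Cys-starved, and 62.7, 62.8 and 63.2 CPM in Thr-starved libraries. Cys-starved libraries lay below and Thr-starved libraries above all unstarved ones. Its log2 fold changes were 0.34 ± 0.03 on Thr starvation (adjusted P-value 7.03e-09) and -0.22 ± 0.03 on Cys starvation (adjusted P-value 2.07e-05), and the starved groups differed by 0.57 ± 0.03 (adjusted P-value 1.64e-12). Pars2, for Pro, was at 11.4, 13.4 and 11.1 CPM in unstarved, 15.2, 15.8 and 14.3 CPM in Cys-starved, and 9.53, 10.6 and 9.72 CPM in Thr-starved libraries. The order was the reverse of that of Yars2, again without overlap. Pars2 changed by -0.27 ± 0.07 on Thr starvation (adjusted P-value 0.00286), by 0.33 ± 0.07 on Cys starvation (adjusted P-value 0.000591) and by -0.60 ± 0.07 between the starved groups (adjusted P-value 1.44e-07), and the Thr value was -0.18 without unstarved library 2.

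Vars2, the mitochondrial Val enzyme, had the largest mitochondrial decrease on Thr starvation. It was at 29.4, 29.4 and 31.7 CPM in unstarved, 33.0, 29.9 and 31.3 CPM in Cys-starved, and 22.2, 21.8 and 21.4 CPM in Thr-starved libraries. The Thr-starved libraries were below all others, and the Cys-starved and unstarved libraries overlapped. The Thr value was -0.47 ± 0.05 (adjusted P-value 8.3e-09) and the Cys value 0.06 ± 0.05 (adjusted P-value 0.363). With GC and length offsets the Thr value was -0.03 and no longer passed (adjusted P-value 0.653), and the GC content of the longest Vars2 transcript is 58.6%. Lars2, for Leu, was at 159, 133 and 109 CPM in unstarved, 90.8, 88.2 and 110.2 CPM in Cys-starved, and 104, 111 and 97.1 CPM in Thr-starved libraries. Its unstarved libraries were the most dispersed of any member, with a coefficient of variation of 18.5%, and unstarved library 3 overlapped both starved groups. The decreases of -0.36 ± 0.09 (Thr, adjusted P-value 0.000986) and -0.47 ± 0.09 (Cys, adjusted P-value 0.000166) carried that spread, and the Thr value was -0.22 without unstarved library 1.

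The remaining mitochondrial genes had log2 fold changes between -0.26 and 0.21 on Thr starvation. Ears2, for Glu, and Rars2, for Arg, were higher on Thr starvation (0.21 ± 0.04 and 0.12 ± 0.03), although the Rars2 value went to -0.01 with GC and length offsets. Iars2, for Ile, was lower in both starvations (-0.26 ± 0.03 and -0.17 ± 0.03), and 22.89% of its exonic length overlaps Rab3gap2 on the opposite strand. Aars2, for Ala, was lower by -0.08 ± 0.03 on Thr starvation (adjusted P-value 0.0397), a call that was lost with RLE scaling, DESeq2, filterByExpr or the 2 groups alone and that turned to 0.41 with GC and length offsets, at a GC content of 60.0%. That call was also lost without any 1 of the Thr-starved libraries or without unstarved library 2 or 3 (adjusted P-values 0.0667 to 0.152). On Cys starvation the Aars2 value was -0.15 ± 0.03 (adjusted P-value 0.000461), without overlap of the libraries. It was called lower under all 20 alternatives other than the fold threshold. Fars2 and Hars2, for Phe and His, were lower on Thr starvation (-0.21 ± 0.07 and -0.15 ± 0.05), and both lost their call without Thr-starved library 1 (adjusted P-values 0.0597 and 0.148), where the Hars2 value was -0.10. The Hars2 call was also lost without unstarved library 1 (0.124), and that of Fars2 with GC and length offsets (-0.07, adjusted P-value 0.374). Nars2 and Wars2, for Asn and Trp, passed in no comparison with all libraries, TMM scaling and the filter of at least 1 count. For Thr-starved against Cys-starved cells, Wars2 passed with the deposited size factors, RLE scaling, filterByExpr and the 2 groups alone (adjusted P-values 0.0182, 0.0457, 0.0474 and 0.0464) and without Thr-starved library 3, unstarved library 2 or unstarved library 3 (0.043 to 0.047), and Nars2 passed without Thr-starved library 1 (0.0476).

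Other genes of tRNA charging gave no single direction. Of 22 such genes, 7 were higher, 9 lower and 6 not called on Thr starvation (median -0.06), and 6 were higher, 7 lower and 9 not called on Cys starvation (median -0.04). The scaffold proteins of the multi-synthetase complex differed, with Aimp2 lower in both (-0.59 ± 0.04 and -0.27 ± 0.04), Aimp1 lower on Cys starvation alone (-0.20 ± 0.03) and Eef1e1 higher on Thr starvation (0.26 ± 0.04) and lower on Cys starvation (-0.16 ± 0.04). Trnt1, which adds the CCA end that every tRNA needs for charging, rose by 0.71 ± 0.03 on Thr starvation and 0.28 ± 0.03 on Cys starvation. Xpot, the nuclear export receptor for tRNA, was lower on Thr starvation (-0.43 ± 0.02), while its Cys value of 0.02 ± 0.02 did not pass. Mtfmt, which formylates the mitochondrial initiator tRNA, was lower in both (-0.71 ± 0.07 and -0.22 ± 0.07). Tarsl2, a relative of Tars, was at 10.6 ± 0.436 CPM in unstarved and 6.94 ± 0.0524 CPM in Thr-starved cells, a log2 fold change of -0.60 ± 0.07, opposite in sign to that of Tars.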

How the data were processed

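The authors aligned reads to GRCm38 with STAR 2.7.4a and counted them per gene with HTSeq, and the raw count table they deposited was analysed. The authors also deposited a signal table of the same counts divided by a size factor per library from DESeq2, used here for its factors only. Strand and overlap settings of the counting are not given in the sources used here. Of counts between 1 and 20, 67.8% were even, as when both ends of a fragment are counted, so counting intervals from these totals would be too narrow.

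Genes with at least 1 count over the 9 libraries (20143 of 20189) were fitted together with edgeR 4.0.16 (R 4.3.3) using TMM scaling, the quasi-likelihood F test and Benjamini-Hochberg adjustment over all of them, with calls at 0.05. CPM values are counts relative to the TMM-scaled library total. Exonic lengths and coordinates came from GENCODE M21 (GRCm38) and promoter windows from RefSeq (GRCm38.p6). In simulated data for Thr-starved against unstarved cells (20142 genes), 86 of 100 genes changed by 0.5 on the log2 scale and 99 of 100 changed by 1 were recovered. There were 11 false calls. Only these genes were changed, equally up and down, whereas 63% of genes passed in the measured comparison. Smaller changes, which include those of most members, were not simulated. For genes of low count, pairs of libraries within a group differed by like amounts (halved chi-square per gene 0.99 to 1.07). For genes of high count, a median-based form of that value was 1.37 to 1.75 in unstarved and Cys-starved pairs. It was 1.34 for Thr-starved libraries 1 and 2, and 2.02 and 2.04 for the pairs with Thr-starved library 3. No library was counted as a duplicate.

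The members and lists were chosen with earlier results of these data known. Genes given with values in all 9 libraries were the Thr and Cys enzymes and, in each comparison and for each compartment, the 2 called members that rose most and the 2 that fell most by log2 fold change. Alternatives were RLE scaling, the deposited size factors, DESeq2 1.42.0, 2 stricter filters, no filter, halved counts, the groups compared alone, a replicate block, offsets for GC content and length (loess, span 0.3), an adjusted P-value of 0.01, a log2 fold change of 1 and leaving out each library.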

Additional observations from a re-analysis of the deposited data

Results flagged for a closer look

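2 synthetase genes and 4 other genes of tRNA charging were called in opposite directions in the 2 starvations relative to the same unstarved libraries. The share of all tested genes called in this way was not counted. Of all tested genes, 31.1% were higher and 31.9% lower on Thr starvation, and 17.5% were higher and 18.8% lower on Cys starvation. Opposite calls can therefore be common among all genes, and the count here is not shown to be particular to genes of tRNA charging. The direct test between Thr-starved and Cys-starved cells was also called. Its estimate is the difference of the 2 values from the same fit, so that call adds no separate evidence. For Pars2 the direct log2 difference was -0.60, and for Yars2 it was 0.57. Eef1e1, a scaffold protein of the multi-synthetase complex, differed by 0.42, with values of 0.26 ± 0.04 on Thr starvation and -0.16 ± 0.04 on Cys starvation. The other 3 genes belong to selenocysteine synthesis and decoding. The selenophosphate synthetase Sephs2 differed by -0.81, with -0.70 ± 0.03 on Thr starvation and 0.12 ± 0.03 on Cys starvation. Its relative Sephs1 differed by -0.30, with -0.22 ± 0.03 and 0.08 ± 0.03, the latter at an adjusted P-value of 0.0467 and with overlapping libraries. Secisbp2, the selenocysteine insertion sequence binding protein, differed by 0.46, with 0.27 ± 0.05 and -0.19 ± 0.05. No cause of these differences was tested.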

How the results depend on the processing

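Of the called members, the same call was made under all 20 alternatives other than the fold threshold for 15 of 17 cytosolic and 7 of 13 mitochondrial genes in Thr-starved against unstarved cells, for 12 of 15 and 5 of 9 in Cys-starved against unstarved cells, and for 12 of 16 and 5 of 12 in Thr-starved against Cys-starved cells. A required log2 fold change of 1 left 0 members in every count. GC and length offsets gave 5 cytosolic and 5 mitochondrial genes lower on Thr starvation, cytosolic medians of 0.23 (Thr), 0.042 (Cys) and 0.11 (Thr against Cys) and a mitochondrial median of 0.0074 (Thr against Cys). They turned the Thr values of Eprs (-0.051), Rars (-0.069), Vars (0.51), Aars2 (0.41), Mars2 (-0.033) and Rars2 (-0.015), and the Thr against Cys values of Dars (-0.051), Eprs (-0.073), Gars (0.015), Vars (0.46), Wars (0.067), Mars2 (-0.13) and Rars2 (-0.0016). The deposited size factors gave 5 cytosolic genes lower, a cytosolic median of 0.040 and 1 mitochondrial gene higher on Cys starvation, and, for Thr against Cys, medians of 0.13 (cytosolic) and 0.15 (mitochondrial), 3 mitochondrial genes lower, and turned values of Gars (0.0054) and Rars (0.044). They shifted the median of all genes on Cys starvation from 0.0068 to -0.0349. The cytosolic median for Thr against Cys was 0.10 with RLE scaling, 0.10 with DESeq2, 0.095 with filterByExpr and 0.077 with at least 10 counts in every library, and the Rars value turned to 0.0102, 0.0105, 0.0077 and, with 2 groups alone, 0.0029. At an adjusted P-value of 0.01, 1 mitochondrial gene was higher on Cys starvation and 3 were lower for Thr against Cys. The cause was not tested in any of these cases.

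Leaving out a library gave 14 to 14 cytosolic genes higher and 3 to 4 lower on Thr starvation (medians 0.16 to 0.19), 11 to 12 and 3 to 3 on Cys starvation (0.07 to 0.10), and 11 to 11 and 5 to 6 for Thr against Cys (0.081 to 0.094). For mitochondrial genes the ranges were 5 to 5 higher and 5 to 8 lower (-0.10 to -0.039), 1 to 3 and 4 to 6 (-0.07 to -0.04), and 4 to 8 and 4 to 6 (0.067 to 0.11). In these fits the Rars value for Thr against Cys ranged from -0.0092 to 0.0076 and was positive in 6, from 0.00056, and that of Nars2 ranged from -0.00087 to 0.17. Same-numbered libraries were not shown to be paired (correlations of their deviations from the group means -0.244 to 0.106). A replicate block called 12488, 7063 and 12334 of all genes in the 3 comparisons, against 12689, 7313 and 12488 without it, gave 11 cytosolic genes higher on Cys starvation and 7 mitochondrial genes lower on Thr starvation, lost the calls of Vars and Cars2 on Cys starvation and of Aars2 on Thr starvation and for Thr against Cys, and added that of Mars2 for Thr against Cys. Mitochondrial members had as few as 437 counts in a library, which limits the precision of their fold changes (SE 0.08 for Wars2).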
